A study of Mus musculus with 28 samples.

Results

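The genes examined here are 8 neurotrophic factors and receptors: the ligands Bdnf, Ntf3 and Gdnf and the receptors Ntrk2, Ntrk3, Ngfr, Ret and Gfra1. They were taken by gene symbol from the table of 23038 genes, and all 8 of them were found in every library. Bulk RNA-seq of polyadenylated RNA was made from midbrain at E18.5 (before birth) with 6 libraries of Nova1 hu/hu and 6 of Nova1 wt/wt mice, and at P21 (after birth) from midbrain and from cortex with 4 libraries of either genotype per region, 28 in all. The labels give a BL6 background for both genotypes, and the study's methods name the strain as C57BL/6J. The hu allele of Nova1, which encodes a neuronal splicing factor, was made by injecting Cas9 into zygotes and encodes valine in place of isoleucine at a single residue, with silent changes that serve genotyping. Carriers were crossed to wild-type mice over several generations, and the number of founders behind these libraries is not given in the sources used here. The allele is in the germline and not confined to neurons. All values are from whole dissected tissue, in which fewer cells of a type and less RNA per cell cannot be told apart.

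Neurotrophins are secreted growth factors that keep neurons alive during development and later tune synapses. BDNF signals through the receptor tyrosine kinase TrkB (Ntrk2) and NT-3 through TrkC (Ntrk3), while p75NTR (Ngfr) binds all neurotrophins and, with sortilin, their uncleaved precursors. GDNF binds the membrane-anchored co-receptor GFRα1 (Gfra1), and this complex activates the kinase RET. In the midbrain GDNF and RET are best known for their action on dopamine neurons, and BDNF in the cortex for its induction by neuronal activity.

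Levels are given as TPM, counts per exon length scaled to the same sum in every library, so that genes can be compared within a library. Total counts per library were 30423267 to 35643736 in P21 cortex, 25256326 to 45134998 in midbrain of that age and 18550922 to 35047494 at E18.5. The ribosomal RNA precursor Rn45s held 2.54% to 11.9% of the counts. Nova1 itself was at 98.4 to 126 TPM at E18.5, and at P21 at 45.7 to 52.7 in midbrain and 23.0 to 25.5 in cortex. It did not differ between genotypes by more than the spread (Benjamini-Hochberg adjusted p 1 in edgeR's quasi-likelihood test in each tissue), and since the edit leaves the transcript in place its level does not check the labels. A gene was called changed at p under 0.05 and adjusted p under 0.1 in that test, with the adjustment over all genes tested. Fold changes come from that fit, which is scaled by TMM factors, and so differ from the ratio of mean TPM values set beside them. The 7 midbrain identity genes summed to 142 to 170 TPM at E18.5, to 37.4 to 47.1 in P21 midbrain and to 3.61 to 6.19 in cortex, where Sox14 was at 0 in all libraries. The 5 cortical projection neuron genes summed to 204 to 232 TPM in cortex and 3.77 to 5.21 in P21 midbrain. Choroid plexus markers summed to between 12.6 and 3671 TPM in midbrain libraries and 1161 to 2209 in cortex.

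RefSeq places the genes on GRCm38.p6 as follows. Bdnf is at chr2:109674700-109727043, Ntf3 at chr6:126101412-126166772 and Gdnf at chr15:7810048-7837580. Ntrk2 is at chr13:58806472-59133970, Ntrk3 at chr7:78179986-78581034 and Ngfr at chr11:95568818-95587698. Ret is at chr6:118151748-118197744 and Gfra1 at chr19:58235581-58455946. Each count covers all exons of a gene, so full-length and kinase-lacking forms of Ntrk2 and Ntrk3 share 1 value. The counting was not stated to use strand, and GENCODE places genes on the opposite strand within Bdnf, Ntrk2, Ntrk3 and Gfra1, so that reads from such partners cannot be told apart from those of the member.

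The 250 bases before each RefSeq start were searched on both strands for TGACGT, the core of the element bound by the activity-regulated factor CREB. The search was chosen after the ligands and genes induced by neuronal activity were seen to be higher in cortex than in midbrain. Starts were given for 6 of the 8 genes, with 14 windows in all, and 2 of the 14 held the letters, against 6.47% of all 32851 such windows. One was before 1 of the 7 Bdnf starts (chr2:109692186-109692435, plus strand) and the other before 1 of the 2 Gdnf starts (chr15:7809798-7810047, plus strand). Both sequences are RefSeq's on GRCm38.p6, with the match in capitals, which here reads as the reverse complement ACGTCA. Neither of the 2 Ntf3 windows held the letters, and no window was given for Ret and Ntrk3.
Bdnf: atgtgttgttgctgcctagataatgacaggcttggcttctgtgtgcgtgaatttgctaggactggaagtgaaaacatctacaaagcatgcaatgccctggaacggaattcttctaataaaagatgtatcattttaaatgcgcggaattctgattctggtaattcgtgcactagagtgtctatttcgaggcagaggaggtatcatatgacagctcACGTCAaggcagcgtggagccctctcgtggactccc
Gdnf: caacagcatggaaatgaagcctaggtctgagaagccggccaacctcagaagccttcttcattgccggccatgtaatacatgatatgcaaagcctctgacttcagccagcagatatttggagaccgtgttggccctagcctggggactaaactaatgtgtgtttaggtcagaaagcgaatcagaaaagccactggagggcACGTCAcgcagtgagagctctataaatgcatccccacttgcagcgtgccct
The match begins 36 bases before the start in Bdnf and 51 before it in Gdnf. It is a description of these letters and not of a bound site, and the gene-level counts do not say which start was used. Whether the letters bear on the difference between regions was not tested.

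Ntrk2, Ntrk3 and Gfra1 stood above the 3 ligands in every library, while Ngfr and Ret were below Bdnf in cortex. In E18.5 midbrain Ntrk2 was highest at 79.6 ± 8.94 TPM (mean ± SD, n = 12), followed by Ntrk3 at 43.6 ± 4.69, Gfra1 at 41.4 ± 2.89, Ret at 19.5 ± 2.45, Ngfr at 14.8 ± 2.32, Bdnf at 4.56 ± 0.505, Ntf3 at 2.77 ± 0.612 and Gdnf at 0.311 ± 0.104. The library ranges of Ntrk3 and Gfra1, of Ret and Ngfr, and of Bdnf and Ntf3 overlapped, although Ret was above Ngfr and Bdnf above Ntf3 within each of the 12 libraries. In P21 midbrain the order was Ntrk2 at 204 ± 7.90 TPM (n = 8), Gfra1 at 52.5 ± 1.76, Ret at 40.4 ± 1.09, Ntrk3 at 34.8 ± 1.79, Bdnf at 5.10 ± 0.297, Ngfr at 4.58 ± 1.03, Ntf3 at 0.751 ± 0.234 and Gdnf at 0.277 ± 0.171. There the ranges of Bdnf and Ngfr overlapped, as did those of Ntf3 and Gdnf, and all other neighbours were apart. In P21 cortex Ntrk2 stood at 146 ± 3.21 TPM (n = 8), Ntrk3 at 48.9 ± 2.95, Gfra1 at 31.9 ± 1.58, Bdnf at 10.03 ± 0.770, Ngfr at 3.56 ± 0.187, Ret at 3.20 ± 0.227, Ntf3 at 2.23 ± 0.499 and Gdnf at 0.606 ± 0.104. Only Ngfr and Ret overlapped among neighbours in cortex. Ret thus had rank 3 of the 8 genes in P21 midbrain and rank 6 in P21 cortex.

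**Figure D1:**
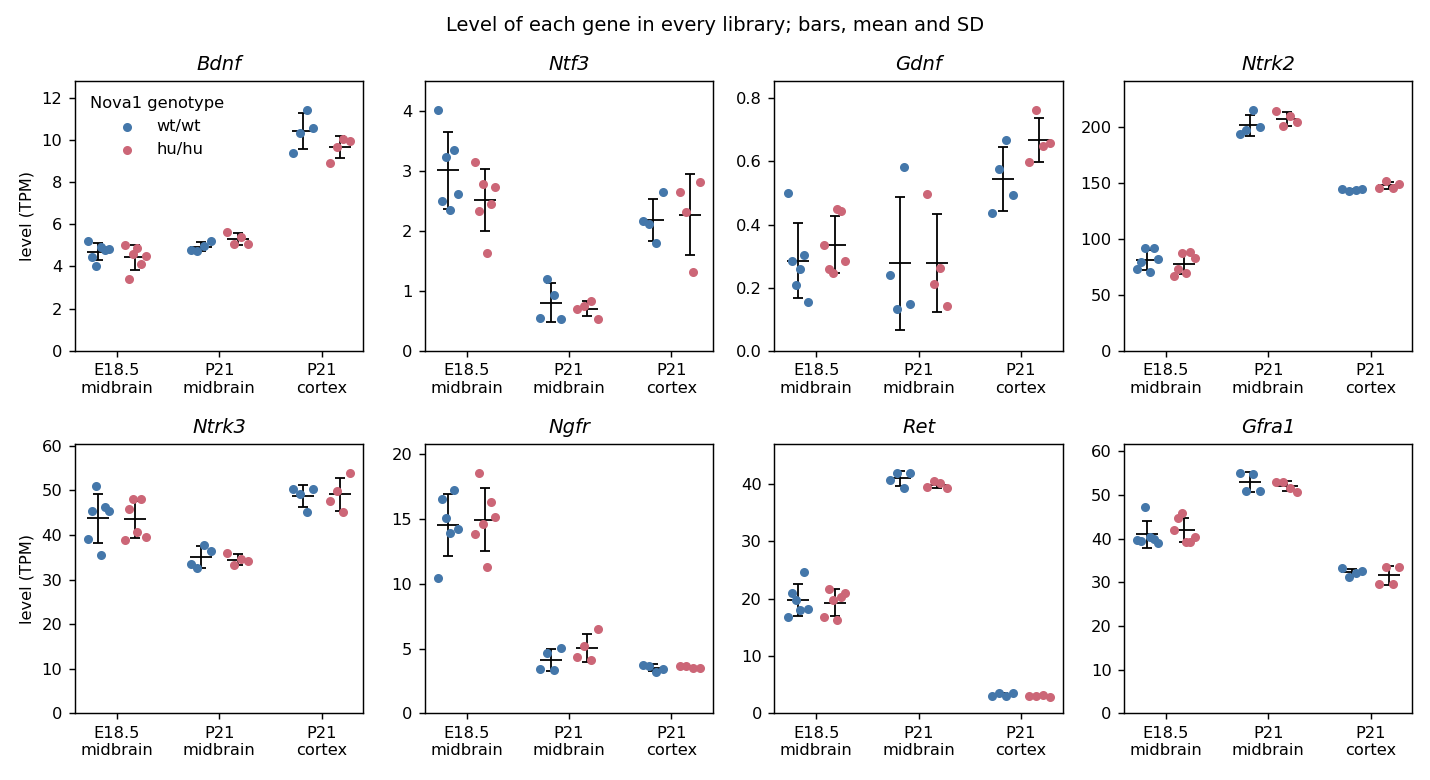
Level in TPM (vertical axes, each from 0) of the 8 genes in every library, by age and region, with wt/wt in blue and hu/hu in red; horizontal and vertical bars are the mean and SD of each group. The genotypes lie side by side in every tissue, while Ret ranges from 2.94 to 3.58 TPM in cortex and from 39.2 to 42.0 in P21 midbrain.

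The comparison of genotypes asks whether the human-type residue in NOVA1 changes the level of these mRNAs. None of them was called in any tissue. Of 15540 genes tested at E18.5, 15972 in midbrain at P21 and 15767 in cortex, edgeR called 0, which is 0% in each, while 201, 426 and 450 genes had an unadjusted p under 0.05. None of the 7, 7 and 8 neurotrophic genes tested was among these. With the replicate number as a block, 4 genes were called in P21 midbrain and 0 in the other tissues, and DESeq2 and edgeR's likelihood ratio test each called 1 in P21 midbrain. No neurotrophic gene was among them. The 4 genes were Gabra6, Cbln3, Mybpc3 and Cdr1, and the other 2 tests both called Gkn3, all named after their values were seen. Gkn3 is also the only gene that the study, using edgeR, reported as different, lower in hu/hu P21 midbrain. The quasi-likelihood test here did not call it. In the likelihood ratio test here its log2 fold change was −0.715 (adjusted p 0.0236). Gdnf passed the filter on low counts only in cortex, and in midbrain it was too low to be tested between genotypes.

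Among the ligands, Bdnf in E18.5 midbrain ranged from 3.40 to 5.02 TPM in hu/hu (median 4.55) and from 4.02 to 5.21 in wt/wt (median 4.79). In P21 midbrain it was at 5.62, 5.08, 5.39 and 5.05 TPM in the 4 hu/hu libraries and at 4.80, 4.73, 4.96 and 5.20 in the 4 wt/wt libraries. The 2 groups overlapped, and the log2 fold change was 0.10 (95% interval −0.07 to 0.27). In P21 cortex it was at 8.91, 9.66, 10.04 and 9.96 TPM in hu/hu and at 9.36, 10.3, 11.4 and 10.6 in wt/wt. Here hu/hu was lower in each of the 4 same-numbered pairs, a trait that was not counted over all genes. The log2 fold change was −0.11 (95% interval −0.26 to 0.05). The difference between these genotype effects, midbrain minus cortex, was 0.22 (SE 0.10). Its unadjusted p was under 0.05 but it failed the correction (adjusted p 1, edgeR's quasi-likelihood test), as 0% of the 16345 genes tested were called and 373 had an unadjusted p under 0.05. Without single libraries it ranged from 0.16 to 0.26. The change of the genotype effect with age in midbrain was 0.20 (95% interval −0.10 to 0.49), where again 0% of 16330 genes were called, with 303 under an unadjusted p of 0.05.

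Ntf3, the ligand of TrkC, lay between 1.63 and 3.16 TPM in E18.5 hu/hu midbrain (median 2.60) and between 2.35 and 4.02 in wt/wt (median 2.93). Its hu/hu minus wt/wt log2 fold change was −0.26 (95% interval −0.67 to 0.16). At P21 it rested on 7 to 20 counts per midbrain library and 24 to 47 per cortex library, and its intervals reached from −0.97 to 0.60 and from −0.48 to 0.58. The P21 midbrain interval is wide enough to hold a 1.5-fold change of Ntf3 in either direction. Gdnf in P21 cortex was at 0.597, 0.763, 0.649 and 0.660 TPM in hu/hu and at 0.437, 0.575, 0.669 and 0.494 in wt/wt. Those groups overlapped, at 16 to 32 counts a library, and differed by 0.30 on the log2 scale (95% interval −0.24 to 0.83). In midbrain Gdnf had 4 to 11 counts per library at E18.5 and 5 to 21 at P21.

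Among the receptors, the well-covered genes were bounded tightly. Ntrk2 in P21 cortex was at 145, 152, 145 and 149 TPM in hu/hu and at 144, 142, 143 and 144 in wt/wt. The groups did not overlap, a trait that was not counted over all genes, and the log2 fold change of 0.05 (95% interval −0.02 to 0.11) was not past the test. In P21 midbrain, where the groups did overlap, it was 0.04 (95% interval −0.03 to 0.12). At E18.5 Ntrk2 ranged from 66.5 to 88.4 TPM in hu/hu and from 70.6 to 92.0 in wt/wt, a log2 fold change of −0.07 (95% interval −0.22 to 0.08). These intervals all include 0. Ntrk3, Ret and Gfra1 had log2 fold changes of −0.02, −0.04 and −0.02 in P21 midbrain, with intervals that stayed between −0.13 and 0.08. In P21 cortex their values were 0.01, −0.10 and −0.02, and in E18.5 midbrain −0.02, −0.03 and 0.03. Intervals stayed within 1.5-fold in both directions for 6 of 7 genes in E18.5 midbrain, 5 of 7 in P21 midbrain and 7 of 8 in cortex.

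Of the receptors, Ngfr had the largest genotype difference in any of the 3 tissues, in P21 midbrain, against 0.03 at E18.5 and 0.04 in cortex (log2). In P21 midbrain it was at 4.32, 5.22, 4.12 and 6.49 TPM in the hu/hu libraries numbered 1 to 4 and at 3.41, 4.67, 3.37 and 5.04 in the wt/wt libraries of the same numbers. The hu/hu library was higher in 4 of 4 pairs, but how many of all genes were so was not counted. The groups overlapped, and the log2 fold change was 0.28 (95% interval −0.07 to 0.63), which was not past the test. Without single libraries it ranged from 0.15 to 0.40, and with the replicate block it was 0.29 (adjusted p 0.999, edgeR's quasi-likelihood test). Replicates 2 and 4 were the higher ones in both genotypes. The summed level of 3 markers of cerebellar granule neurons (Gabra6, Cbln3 and Fat2) was also highest there, at 6.63 and 5.24 TPM in hu/hu and 13.8 and 17.2 in wt/wt, against 2.90 and 2.22 in hu/hu and 6.18 and 2.17 in wt/wt for replicates 1 and 3. Between genotypes these 3 markers lay the other way, with a median log2 fold change of −1.34. None was called without the replicate block, and with it Gabra6 and Cbln3 were called, both lower in hu/hu. Schwann cell markers, 3 of 4 listed genes being in the tables, summed to 139 TPM in wt/wt replicate 2 and to 4.09 to 34.4 in the other P21 midbrain libraries. The part of either cell type in the Ngfr values was not tested.

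**Figure D2:**
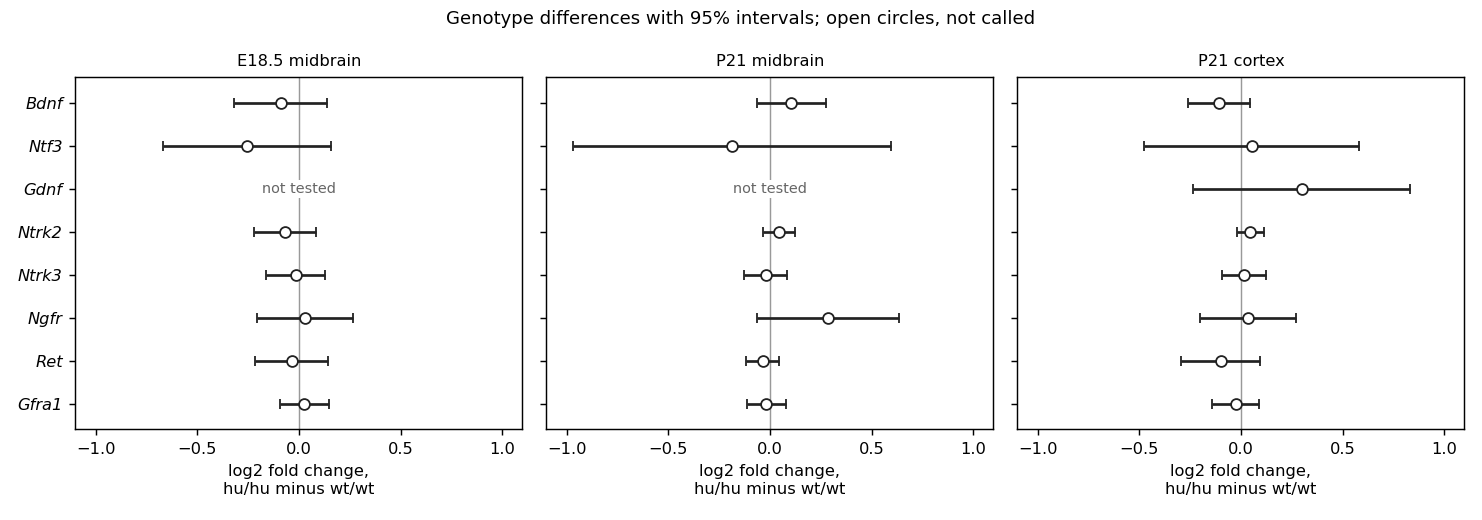
Log2 fold change of hu/hu over wt/wt (horizontal axis) for each gene, with 95% intervals from edgeR's quasi-likelihood fit, in midbrain at E18.5 (6 against 6 libraries) and in midbrain and cortex at P21 (4 against 4 each). Every circle is open, since no gene was called, and every interval includes 0; the widest are those of Ntf3 and Gdnf.

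The comparison of ages in midbrain was made over both genotypes, with 12 libraries at E18.5 and 8 at P21. Of 16330 genes tested, 42.4% were called higher and 43.3% lower at P21, so a call by itself says little, and 15.9% and 14.6% were called with at least a 2-fold change up and down. Of the 8 neurotrophic genes, 4 rose, 3 fell and Gdnf was not called. At least 2-fold changes were found for Ntrk2 and Ret, which rose, and for Ntf3 and Ngfr, which fell. The median log2 fold change was 0.20 over the 8 genes and −0.015 over all genes tested. How many of all genes had library ranges that did not overlap between ages was not counted.

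Ntrk2 rose most. It ranged from 66.5 to 92.0 TPM over the 12 E18.5 libraries and from 194 to 215 over the 8 at P21. The ranges were far apart, and the log2 fold change was 1.56 (SE 0.05), or 2.96-fold (edgeR's quasi-likelihood test, adjusted p 3.9e-20). The 6 astrocyte markers, whose cells are known to carry a truncated TrkB, rose in sum from 447 to 628 TPM at E18.5 to 1334 to 1414 at P21, with 5 of 6 called higher. Their part in the Ntrk2 values was not tested. Ret went from 16.2 to 24.6 TPM at E18.5 to 39.2 to 42.0 at P21, a log2 fold change of 1.25 (SE 0.05), without overlap. The 8 dopamine neuron markers summed to 171 to 220 TPM at E18.5 and 588 to 674 at P21, with 5 called higher and 3 lower. The 7 markers of cholinergic and cranial motor neurons, which also carry RET, summed to 37.2 to 72.7 and 56.7 to 82.2, with 5 higher and 2 lower. Their part in the Ret values was not tested. Gfra1, the partner of RET, rose less, from 39.0 to 47.3 TPM to 50.6 to 55.1, by 0.54 (SE 0.04).

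Ntf3 and Ngfr fell. Ntf3 dropped from 1.63 to 4.02 TPM at E18.5 to 0.530 to 1.20 at P21, a log2 fold change of −1.67 (SE 0.18), or 3.17-fold lower. Ngfr dropped from 10.5 to 18.6 TPM to 3.37 to 6.49, a change of −1.48 (SE 0.11), or 2.79-fold lower. Neither gene overlapped between ages. Markers of meningeal fibroblasts, which are known to carry p75NTR, fell beside them, from a sum of 344 to 532 TPM to 119 to 159, with 5 of 5 called lower. Their part in the Ngfr values was not tested.

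Bdnf and Ntrk3 changed little, and Gdnf was not called. Bdnf moved from 3.40 to 5.21 TPM to 4.73 to 5.62, with overlapping ranges and a log2 fold change of 0.37 (SE 0.07). Ntrk3 moved from 35.5 to 50.9 TPM to 32.7 to 37.8, also with overlap and a change of −0.12 (SE 0.05, adjusted p 0.0224, edgeR's quasi-likelihood test). With a single genotype the Ntrk3 call was lost, at −0.11 (adjusted p 0.103) in hu/hu and −0.12 (adjusted p 0.151) in wt/wt. Gdnf went from 0.154 to 0.5005 TPM to 0.133 to 0.584, a change of 0.03 with a 95% interval of −0.59 to 0.66. These smaller values depend on scaling. Scaled to library totals in place of TMM factors, an alternative chosen after the data were seen, the median of all genes shifted by −0.16, and Bdnf was then at 0.21, Ntrk3 at −0.28 and Gdnf at −0.12, with the same 7 genes called and 41.5% of all calls higher at P21 instead of 49.5%.

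The comparison of regions at P21 set 8 midbrain against 8 cortex libraries of both genotypes. Of 16345 genes tested, 37.9% were called higher and 37.7% lower in midbrain, 7.81% and 7.56% with at least a 2-fold change. All 8 neurotrophic genes were called, 4 higher in midbrain and 4 lower, and 1 was at least 2-fold higher and 3 at least 2-fold lower. The 3 at least 2-fold lower were the 3 ligands, and the 4 higher were all receptors. Of the ligands, Gdnf passed the filter on low counts between genotypes only in cortex, where it is higher. In P21 midbrain it had 5 to 21 counts per library and Ntf3 had 7 to 20, so the pattern of the ligands rests partly on low counts. Neither is tested where at least 10 counts are required in every library. The median log2 fold change was −0.14 over the 8 genes and 0.00063 over all genes tested. Ranges that did not overlap between regions were not counted over all genes either.

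Ret differed most. It was at 39.4, 40.5, 40.3 and 39.2 TPM in hu/hu midbrain, 40.7, 41.9, 39.4 and 42.0 in wt/wt midbrain, 3.02, 3.10, 3.28 and 2.94 in hu/hu cortex and 3.10, 3.58, 3.11 and 3.48 in wt/wt cortex. Each midbrain library was above each cortex library, at a log2 fold change of 3.58 (SE 0.04), or 11.98-fold (95% interval 11.4 to 12.6), and 0.685% of the genes tested had a larger log2 fold change towards midbrain. Of the 8 dopamine neuron markers 7 were called higher in midbrain and 1 lower (−1.99), with a median log2 fold change of 2.86. These markers summed to 588 to 674 TPM in P21 midbrain and 169 to 190 in cortex, and to 171 to 220 in E18.5 midbrain. Of the 7 cholinergic and motor neuron markers 6 were called higher and 1 was not called, with a median of 1.67. Their sums were 56.7 to 82.2 TPM in P21 midbrain and 15.7 to 19.9 in cortex. Pitx3 of the dopamine list was at 0 in all hu/hu cortex libraries. The part of either cell type in the Ret values was not tested. Over all 28 libraries the 3 genes whose pattern lay nearest to that of Ret, by the root mean square difference of centred log2(TPM + 1) values among 15533 genes, were Calb2 (0.28), a calcium-binding protein, Chrna6 (0.29), a nicotinic receptor subunit of dopamine neurons, and Dbh (0.30), the enzyme that makes noradrenaline from dopamine. The spread of Ret itself on that scale was 1.29.

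The other receptors differed by less. Gfra1 was at 50.6 to 55.1 TPM in midbrain and 29.7 to 33.6 in cortex (log2 fold change 0.64, SE 0.03), and Ntrk2 at 194 to 215 and 142 to 152 (0.41, SE 0.02). Neither overlapped between regions, while Ntrk3 was apart in the other direction, at 32.7 to 37.8 TPM in midbrain and 45.1 to 53.9 in cortex (−0.57, SE 0.04). Ngfr overlapped, at 3.37 to 6.49 TPM in midbrain and 3.18 to 3.77 in cortex, with 0.29 (SE 0.10, adjusted p 0.0148, edgeR's quasi-likelihood test). Its call was lost in wt/wt alone, at 0.16 (adjusted p 0.347). The cerebellar granule and Schwann cell markers were at 0.184 to 0.545 and 0.748 to 1.65 TPM in cortex, below their level in each P21 midbrain library. The 6 astrocyte markers summed to 1334 to 1414 TPM in P21 midbrain and 1354 to 1524 in cortex, with 4 called higher in midbrain and 2 lower. The part of astrocytes in the Ntrk2 difference was not tested.

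The ligands were all lower in midbrain. Bdnf was at 4.73 to 5.62 TPM in midbrain and 8.91 to 11.4 in cortex, without overlap, a log2 fold change of −1.05 (SE 0.06), or 2.07-fold higher in cortex. Ntf3 was at 0.530 to 1.20 TPM in midbrain and 1.31 to 2.81 in cortex, also apart, at −1.64 (SE 0.21), or 3.11-fold higher in cortex. Gdnf was at 0.133 to 0.584 TPM in midbrain and 0.437 to 0.763 in cortex, with overlap, at −1.22 (SE 0.27, adjusted p 0.000335, edgeR's quasi-likelihood test). The dissected cortex also held markers of striatal projection neurons, at 616 to 772 TPM in sum against 71.6 to 85.1 in midbrain, and the striatum is a known site of Gdnf. Their part in the Gdnf value was not tested. Of 6 markers of dentate granule neurons, 4 were called lower in midbrain and 2 higher, with a median log2 fold change of −1.40. In sum they lay the other way, at 24.8 to 31.5 TPM in cortex and 32.5 to 38.7 in P21 midbrain. The part of these cells in the ligand values was not tested.

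**Figure D3:**
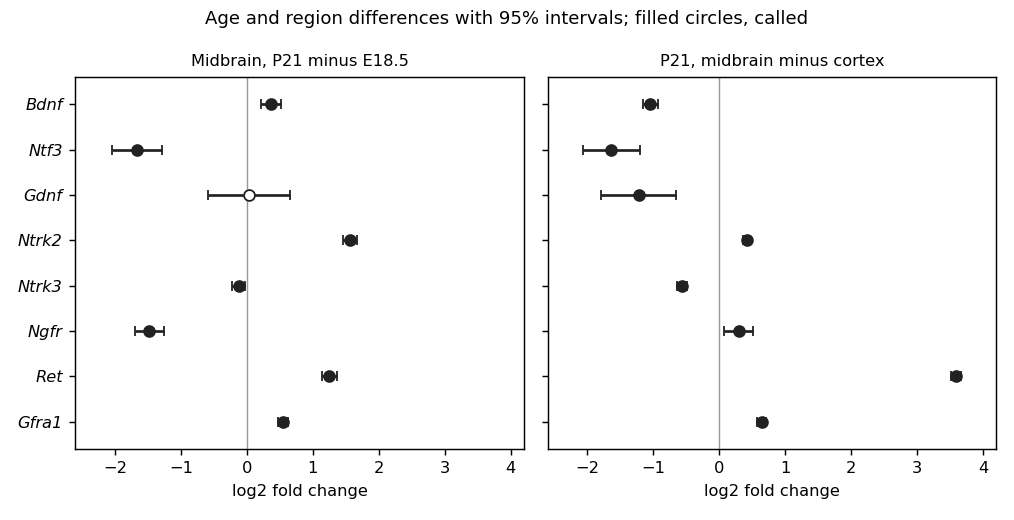
Log2 fold change (horizontal axes) of P21 over E18.5 midbrain on the left and of P21 midbrain over P21 cortex on the right, with 95% intervals from edgeR's quasi-likelihood fit over both genotypes. Filled circles were called; Ret stands apart on the right at 3.58, and the 3 ligands at the top of the right panel lie between −1.05 and −1.64.

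Immediate early genes, 12 in number, which neurons switch on soon after activity, were set beside Bdnf, since Bdnf is itself such an activity-induced gene. In cortex against midbrain 10 of the 12 were higher in cortex, 9 of them at least 2-fold, with a median log2 fold change of −2.28. Egr3 and Egr4, transcription factors, differed most among those with the smallest p, at 22.9-fold and 21.2-fold higher in cortex, and Egr1 was 6.73-fold higher. In P21 midbrain Egr3 rested on only 3 to 12 counts per library and Egr4 on 14 to 42. Within cortex the summed level of the 12 genes was 365, 1072, 622 and 467 TPM in hu/hu replicates 1 to 4. In wt/wt replicates 1 to 4 it was 325, 1085, 751 and 494. Replicate 1 was lowest and replicate 2 highest in both genotypes, and Bdnf was also lowest in replicate 1 of both, but highest in replicate 3. The correlation of Bdnf with these genes, as deviations from the group means, had a Pearson r of 0.11 and a Spearman rho of 0.07 over 28 libraries, and 0.01 for r without the 2 libraries farthest out. The tissues differed in sign, and the pooled value averages over them. In the 8 cortex libraries r was 0.57 and rho 0.40, and r was 0.98 without both replicates 2, where the early genes were highest. That setting drops 1 whole same-numbered pair and leaves few libraries. In P21 midbrain r was 0.15, and 0.34 without the 2 libraries farthest out. In E18.5 midbrain r was −0.45, and −0.36 without the 2 farthest out. These are descriptions with no test, since same-numbered libraries vary together and the cortex values are 4 such pairs.

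**Figure D4:**
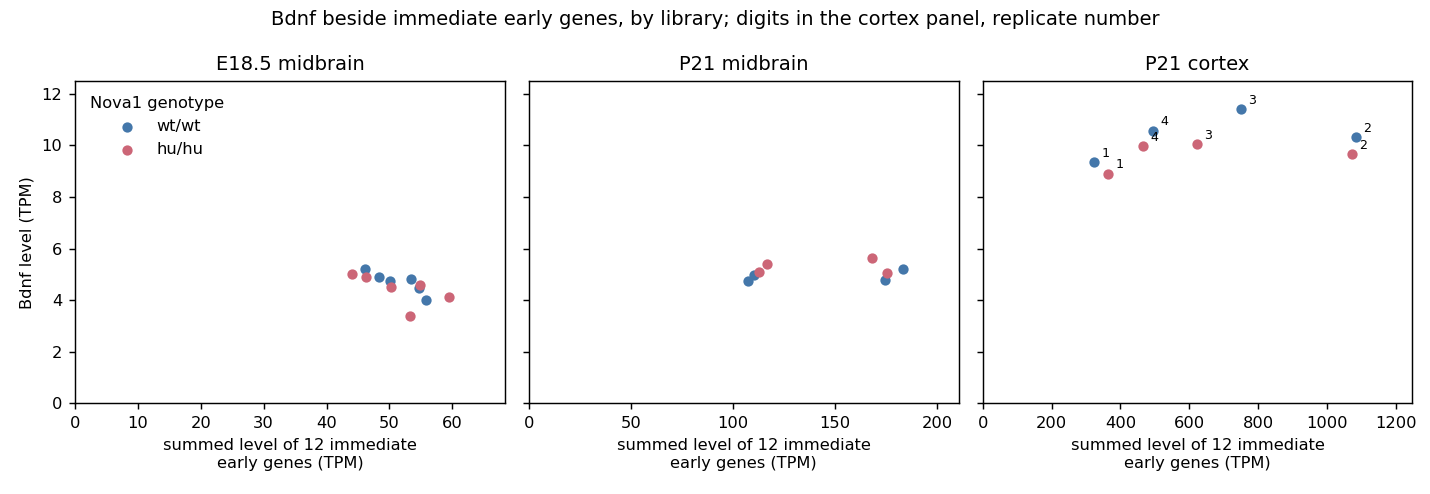
Bdnf level (vertical axis, TPM, from 0) against the summed level of 12 immediate early genes (horizontal axes, TPM, from 0, of different length in each panel) in every library, wt/wt in blue and hu/hu in red. In cortex the early genes range from 325 to 1085 TPM while Bdnf stays between 8.91 and 11.4.

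Of the other ligands of both families, 4 of 5 were tested across age. Of these, 2 rose and 1 fell, but 1 was called in hu/hu libraries alone and 0 with at least 10 counts required in every library, where fewer genes are tested. Nrtn (neurturin) rose from 1.21 to 2.70 TPM on average (log2 fold change 1.37, SE 0.33). It rested on 2 to 33 counts per library at E18.5 and 14 to 44 at P21. Its ranges overlapped, at 0.312 to 4.54 and 1.59 to 4.41 TPM, and its median at E18.5 was 0.768. Pspn (persephin) fell (−0.76, SE 0.24), on 7 to 25 counts per library at E18.5 and 4 to 16 at P21. Artn (artemin) was at 0.31 (SE 0.30), which was not past the test. Between regions 1 was higher and 1 lower in midbrain, and Nrtn was the higher one (0.78, SE 0.28), with 1 call left under either of those settings. Pspn and Artn were not called.

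Of 12 other receptors and co-receptors, 11 were tested across age, with 3 called higher, 5 lower and 3 neither. Sort1 (sortilin) rose from 62.4 to 137 TPM (1.34, SE 0.03) while its partner Ngfr fell, and Gfra4, the persephin co-receptor, rose by 1.06. Nradd, a relative of p75NTR, averaged 17.3 TPM at E18.5 and 3.07 at P21, and its fold in the edgeR fit, which is scaled by TMM factors, was 4.87-fold lower. Ncam1, through which GDNF can also act, was 1.87-fold lower in that fit. Between regions 2 were higher and 5 lower in midbrain. Lingo1, a partner of p75NTR, was at 218 TPM in cortex and 73.5 in midbrain (−1.64, SE 0.04), Sort1 and Sorcs3 of the sortilin family differed by −0.51 and −0.55 (log2), and Ncam1 was higher in midbrain, by 0.49.

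Of the 8 tested genes that cleave proneurotrophins or control that step, 4 rose and 3 fell with age, and 4 were higher and 3 lower in midbrain than in cortex. The convertase Pcsk6 rose 3.01-fold with age and was 1.93-fold higher in midbrain than in cortex, whereas its relative Pcsk5 fell 2.23-fold with age and was 1.68-fold higher in cortex. Mmp9, a secreted protease, and Serpini1 (neuroserpin), an inhibitor of Plat, also fell with age, with log2 fold changes of −1.78 and −0.56. Plat, the plasminogen activator, was 1.84-fold higher in midbrain and Serpini1 1.91-fold higher in cortex.

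All 20 adaptors and signalling genes were tested, and 8 rose and 9 fell with age, with a median log2 fold change of −0.010. The docking protein Gab1 rose 3.01-fold and the phosphatase gene Ptpn11 1.93-fold, while the adaptors Dok4, which binds RET, and Sh2b2 fell 4.24-fold and 3.55-fold. Between regions 11 were higher and 6 lower in midbrain, led by Gab1 at 2.71-fold, Frs3 at 1.84-fold, the Ras activator Sos1 at 1.76-fold and Ptpn11 at 1.48-fold. Of 13 genes that restrain or tune the receptors, 5 rose and 7 fell with age, and 5 were higher and 8 lower in midbrain. Islr2, a membrane protein that binds Trk receptors and RET, fell from 137 to 5.72 TPM in midbrain (−4.37, SE 0.06) and was at 49.3 in cortex. Lrig1, which limits RET signalling, was higher by 0.89 with age and by 1.84 towards midbrain. Ret, Gfra1 and Ntrk2 were also higher in both comparisons, and so were 5 of 5 oligodendrocyte markers, with median log2 fold changes of 8.54 and 1.67. These markers summed to 58.2 to 81.9 TPM at E18.5, 19816 to 22304 in P21 midbrain and 5725 to 6461 in cortex, and their part in the values of these genes was not tested. With age Spred1 rose by 0.63 and Nedd4l changed by −0.74, and between regions Slitrk5 and Nedd4l were lower in midbrain, at −0.81 and −0.88 (log2).

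Of the other neurotrophic factors and their receptors, 4 of 9 tested rose and 4 fell with age, and 5 of 11 were higher and 3 lower in midbrain. The 3 parts of the CNTF receptor rose together with age, Cntfr by 1.08, Lifr by 0.86 and Il6st by 0.79 on the log2 scale, and Ptn (pleiotrophin) changed by −0.95. Towards midbrain Cntfr was higher by 0.63 and Il6st by 0.79, and Ptn was 1.41-fold higher in cortex. With age 9 of the 11 immediate early genes tested rose and 1 fell, among them Fos, Fosb, Egr1 and Arc at 10.4-fold to 11.4-fold. In none of these lists was a gene called between genotypes in any of the 3 tissues. An unadjusted p under 0.05 was found for Gfra3, the artemin co-receptor, in E18.5 midbrain (1.03, SE 0.36), on 1 to 18 counts per library. Islr2 in P21 cortex was also under it (−0.12, SE 0.05). Both had adjusted p 1 in edgeR's quasi-likelihood test.

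**Figure D5:**
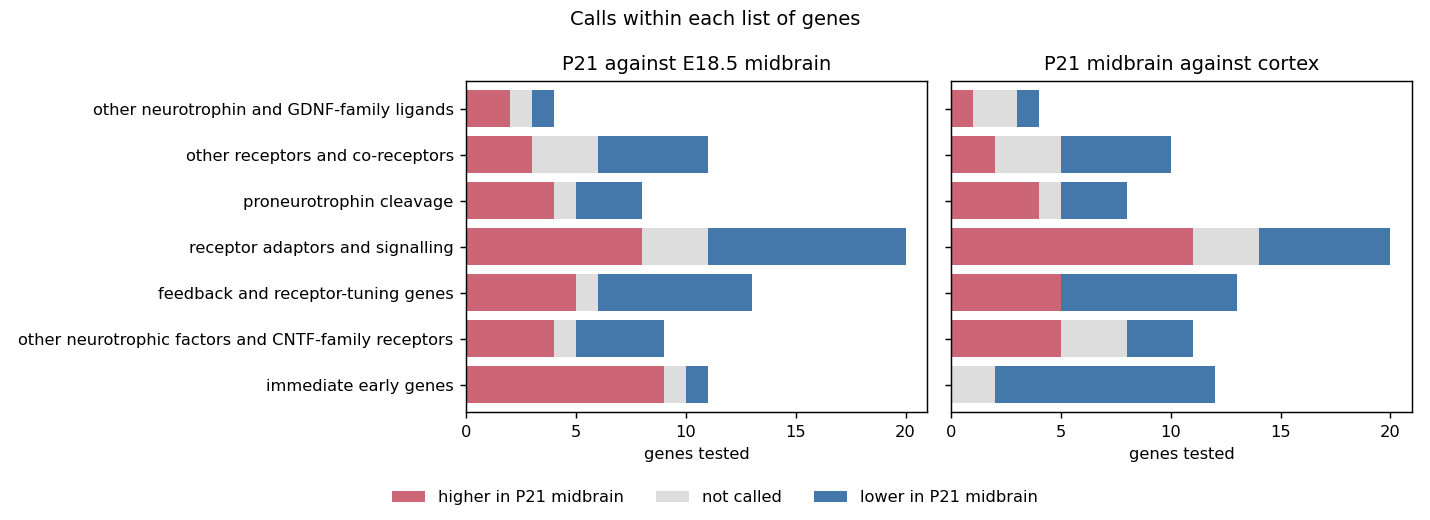
Number of genes tested (horizontal axes) in each list, split into those called higher in P21 midbrain (red), lower (blue) and not called (grey), against E18.5 midbrain on the left and against P21 cortex on the right. Calls in both directions appear in every list except the immediate early genes against cortex, where none was called higher in midbrain.

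The nearest patterns of the other genes over the 28 libraries were found in the same way. Nearest to Bdnf were Dnalc1 (root mean square difference 0.12 on the log2 scale, where Bdnf itself spread by 0.44), A830010M20Rik and Gucy1b3. Nearest to Ntf3 were 3110047P20Rik (0.20, own spread 0.51), Dab1 and Mcrs1, and nearest to Gdnf Camk1 (0.12, own spread 0.19), Ei24 and Tor1b. Gdnf averaged 0.277 to 0.606 TPM, under the 1 added before taking logs, which flattens its pattern. Camk1 averaged 149 TPM in P21 midbrain and 177 in cortex, while the fit put Gdnf 2.34-fold higher in cortex. Nearest to Ntrk2 were Ppip5k1 (0.07, own spread 0.59), Cds2 and Epb4.1l2, and nearest to Ntrk3 Rnf10 (0.075, own spread 0.22), Med24 and Ctnnd2. Ngfr lay nearest to Sgol2 (0.17, own spread 0.84), Col4a1 and Il17rd, and Gfra1 to Lhfp (0.08, own spread 0.27), Zfp536 and Hspa9. These are likenesses of level over 3 tissues that differ in many genes.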

How the data were processed

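RNA-seq of midbrain (E18.5, P21) and cortex (P21) was used, from mice of both genotypes. The authors selected polyadenylated RNA, sequenced it paired-end, aligned reads to mm10 with OLego and counted with Quantas. The gene annotation is not given in the sources used here. Each library's deposited table gives an expected count per gene with its exon length and RPKM. The deposited expected counts were not whole for 751 to 2715 genes per library and were rounded for tests. The deposited RPKM values followed from count and length and were not used further. TPM was derived from counts before rounding. Columns left unused numbered 0.

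Tests were made in R 4.3.3 with edgeR 4.0.16 (TMM factors, filterByExpr, two-sided quasi-likelihood test with legacy=TRUE) on the libraries of each comparison, with genotype as a term for age and region and a product term for the interactions. The study and the submitters' processing notes name edgeR. The members and gene lists were chosen with earlier results of these data known. All 8 members are named. Of each list, up to 4 called genes with the smallest p are named per comparison, and some genes that this rule names are not reported here. Uncalled genes of the lists (Artn, Pspn, and Gfra3 and Islr2 between genotypes) and single cell markers were named after their values were seen. The 3 nearest patterns of each member come from genes whose mean was 1 TPM or more.

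Libraries of 1 tissue with the same replicate number varied together across genotypes. Their deviations from group means correlated at 0.403 to 0.444 in cortex, 0.376 to 0.476 in P21 midbrain and 0.376 to 0.576 at E18.5, so the numbers pair the genotypes, as read from the data and not from the labels. The study calls its molecular replicates biological and states that both sexes were sequenced in equal numbers. The labels used here tie no library to an animal or a sex, so what a replicate number marks was not tested. No pair of libraries of a group agreed within sampling noise (lowest mean chi-square per gene 4.63). The alternatives were RLE factors, DESeq2 1.42.0, the likelihood ratio test, adjusted deviances, other filters on low counts, a stricter adjusted p of 0.05, the replicate block, a single genotype, a fit over the 28 libraries, each library left out, and library totals (added after the data were seen). The pipeline was tested on simulated counts. Positions and promoter windows are RefSeq's on GRCm38.p6, the assembly behind mm10, and overlapping genes are GENCODE's.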

Additional observations from a re-analysis of the deposited data

Results flagged for a closer look

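One value stood apart from its group. Gfra1 in E18.5 midbrain wt/wt replicate 3 was at 47.3 TPM, with the next library at 40.3 and the lowest at 39.0, and its gap of 0.84 of the group's range was past Dixon's 95% critical value for 6 samples. Chance gives such a gap in about 1 of every 20 groups of values, and 48 groups were looked at, so 1 such gap is not unusual. Without single libraries the Gfra1 genotype difference at E18.5 stayed between 0.01 and 0.06 (log2) and its change with age between 0.53 and 0.56.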

How the results depend on the processing

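Of 1304 values of the 8 genes under other settings, 0 reversed a call, 3 lost one (Ntrk3 with age in either genotype alone, Ngfr between regions in wt/wt alone) and 0 gained one. Sign changes of uncalled values made up 77. Without single libraries 7 members stayed called with age and 8 between regions, and all genes called numbered 13869 to 13974 and 12228 to 12348. Requiring at least 10 counts in every library left 6 members called in each, with fewer genes tested. Of the other lists, only the other ligands moved by over 1.5 times in the age and region comparisons, from 3 calls to 0 with age and from 2 to 1 between regions under that filter, and to 1 in each with hu/hu libraries alone.

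The replicate number as a block gave 4 called genes between genotypes in P21 midbrain against 0 without it, 0 of them members, and changed no member's call. DESeq2 and the likelihood ratio test each called 1 gene there, and the latter 2 genes, Myh2 and Nms, in the interaction with region. Across regions, libraries of the same genotype and number varied in opposite directions (correlations −0.40 to −0.26, against a median of 0.24 for other pairs). What lies behind this was not tested. The numbers did not pair the ages (−0.31 to 0.38, against a median of −0.16 for other pairs). The block in the age fit joined equal numbers across ages, and in the region fits libraries of the same genotype and number. Neither models the pairs of genotypes within a tissue. The age and region calls, which treat those libraries as independent, were therefore not checked against that pairing.

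The correlation of Bdnf with the early genes was −0.45 in E18.5 midbrain alone, 0.57 in cortex alone and 0.15 in P21 midbrain alone, and the cause was not tested. Levels scaled by TMM instead of to a fixed sum moved by more than 1 SD for Bdnf in cortex (11.1), Gfra1 at E18.5 (37.3), in cortex (35.2) and in P21 midbrain (54.9), Ngfr in cortex (3.92), Ntrk2 in cortex (161) and P21 midbrain (214), Ntrk3 in cortex (53.9) and Ret in cortex (3.53) and P21 midbrain (42.3). Depth limits Gdnf and Ntf3, with 4 to 32 and 7 to 47 counts per library.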
